A study of Mus musculus with 13 samples.

Results

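The genes described here carry the names of nuclear-encoded subunits of the respiratory chain. They were chosen by name: symbols beginning with Ndufa, Ndufb, Ndufc, Ndufs or Ndufv, the succinate dehydrogenase genes Sdha to Sdhd, and symbols beginning with Uqcr, Cox4i, Cox5, Cox6, Cox7, Cox8 or Atp5. Assembly factors named Ndufaf or Sdhaf and pseudogenes were left out, as were genes with a mean under 0.5 RPKM (reads scaled by gene length and by the mapped reads of the library). Of the 20971 genes measured 85 had such a name, and 84 passed the minimum; Cox8c, at a mean of 0.007 RPKM, did not. By symbol 38 belong to complex I, 4 to complex II, 8 to complex III, 17 to complex IV and 17 to complex V. A symbol does not show that a gene encodes a structural subunit. Atp5s and Atp5sl in particular are counted with complex V by name only.

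RNA was sequenced from the cortex of C57BL/6 mice aged 6 months. By the labels, a group of 6 carried the APPPS1 transgenes. The other group of 7 carried the same transgenes and lacked both copies of Apoe, written APPPS1;Apoe-/-. APPPS1 mice express mutant human amyloid precursor protein and presenilin 1 in neurons from the Thy1 promoter and deposit amyloid plaques. Both groups are labelled as carrying these transgenes, so the design has no group without them. Amyloid itself was not measured here. The series' design counts the libraries as separate mice, and the question was how the complexes differ between the 2 genotypes. Whole cortex was sequenced, so fewer cells of a type and less RNA per cell cannot be told apart.

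Complexes I and II feed electrons from NADH and succinate into ubiquinone, complex III passes them to cytochrome c, and complex IV hands them to oxygen. Complexes I, III and IV pump protons across the inner mitochondrial membrane, and complex V, the ATP synthase, uses the gradient to make ATP. Neurons depend heavily on this route for ion pumping and synaptic transmission. Most subunits come from nuclear genes, and a small set comes from mitochondrial DNA; the latter were not analysed here.

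The libraries differed in ways that touch these genes. APPPS1 libraries had between 28402328 and 77005806 alignments, and APPPS1;Apoe-/- libraries had fewer, between 18455493 and 34538031. Apoe averaged 581 ± 84.2 RPKM (SD, n = 6) against 5.44 ± 0.888 (SD, n = 7), and the groups did not overlap. APPPS1;Apoe-/- replicates 2 and 5 stood apart: App, to which transgene reads can align, was at 106 and 116 RPKM there against 176 to 216.5 in the other libraries. Thy1, whose promoter drives the transgenes, was at 52.2 and 56.9 RPKM there against 172 to 245 elsewhere. Cst7, a microglial marker, was at 0.490 and 0.518 RPKM there. It was at 10.5 to 18.2 in the rest of that group and 32.6 to 65.6 in APPPS1. Whether both mice carried the transgenes was not tested. Replicate 5 also had the fewest alignments and the highest sum of RPKM, 355566 against 315082 to 340369 elsewhere. Values without both libraries are given beside the results that they move.

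Genes of the chain are known to share binding sites for a few transcription factors, so their promoters are shown first. RefSeq promoter windows on GRCm38.p6, from 250 bases before to 50 after a start, were listed for 67 of the 84 genes (72 windows). For 7 motifs, chosen after the expression results were known, both strands were searched. The NRF1-type motif, bound by nuclear respiratory factor 1 and searched with any base allowed at 1 position near its centre, lay in 18 of 72 windows (25.0%) against 4.6% of all 32851 windows. The ETS-type motif CCGGAAG, the core bound by GABP, lay in 22.2% against 8.86%, and the YY1-type motif AANATGGCG in 13.9% against 2.38%. The Sp1-type motif GGGGCGGGG lay in 13.9% against 11.45%. A stricter NRF1 form (6.9% against 0.97%) and CCGGAAGT (6.9% against 3.89%) lie within the first and second motifs, and the ERR-type motif TCAAGGTCA lay in 2.8% against 0.42%. Printed here are stretches that hold the NRF1-type motif and overlap no annotated exon, from a complex V gene and a pair of complex I genes, each on the minus strand of GRCm38.p6 and with the match in capitals. They lie at chr11:115420006-115420105 (Atp5h), chr16:37654505-37654604 (Ndufb4) and chr4:123718230-123718329 (Ndufs5).
Atp5h: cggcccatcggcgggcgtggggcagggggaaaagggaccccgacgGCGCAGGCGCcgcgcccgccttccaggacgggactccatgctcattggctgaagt
Ndufb4: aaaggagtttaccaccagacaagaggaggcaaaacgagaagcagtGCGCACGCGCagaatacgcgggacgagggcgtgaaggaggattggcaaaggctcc
Ndufs5: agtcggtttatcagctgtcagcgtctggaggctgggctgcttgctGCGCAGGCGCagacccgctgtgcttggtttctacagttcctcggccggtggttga
The match begins 141 bases before the start in Atp5h and 98 bases before it in Ndufs5; Ndufb4 has 3 matches before its start, the first of which, 191 bases before it, is shown. Matches are descriptions of letters, and binding was not measured. The 17 genes with the NRF1-type motif had a median log2 change of 0.02 between genotypes (0.025 before rounding), and the other genes with a window had -0.02.

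Each change is the log2(RPKM + 0.5) mean of APPPS1;Apoe-/- libraries less that of APPPS1 libraries. It was tested with limma over 13343 genes and called at a Benjamini-Hochberg adjusted p under 0.05. Of the 84 genes 1 was called higher (Ndufs1) and 0 lower. These are 1.19% and 0% of the 84, beside 3.48% called higher and 4.74% called lower among all genes tested. At an unadjusted p under 0.05 there were 12 higher (14.3%) and 10 lower (11.9%), beside 11.6% and 13.4% of all genes. In 0 genes did the groups fail to overlap in either direction, against 1.54% of all genes higher and 2.17% lower. The changes were small and went both ways: 46 above 0 and 38 below, with a median of 0.02 (0.018) against -0.01 (-0.008) for all genes. The 95% interval of the change lay within 0.5 on either side of 0 for 80 genes and within 0.3 for 59. The count of calls depends on the scaling: quantile normalization gave 8 higher and 6 lower, 9.52% and 7.14% of the 84, so there the share was above the 5.15% and 4.56% of all genes. Array weights gave 3 and 5 (3.57% and 5.95%, beside 4.74% and 6.03% of all genes). Without APPPS1;Apoe-/- replicates 2 and 5 there were 0 and 1 (1.78% and 3.30% of all genes). With library depth in the model it was 0 and 0 (0.525% and 0.989%).

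**Figure D1:**
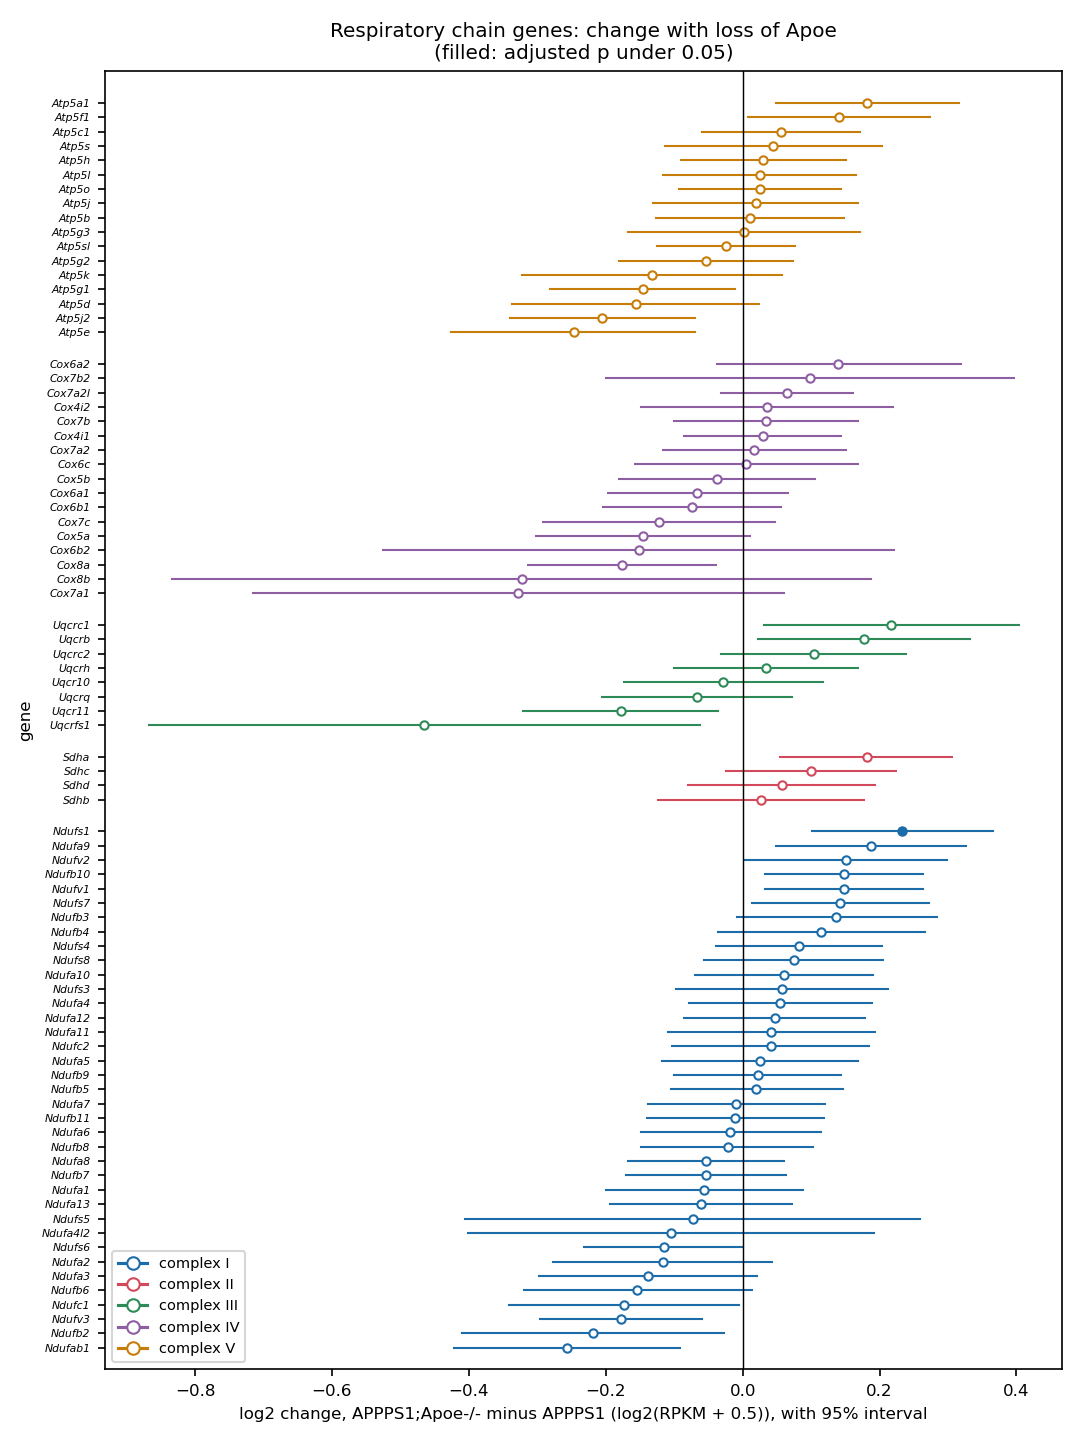
The log2 change of the respiratory chain genes shown (APPPS1;Apoe-/- minus APPPS1, x axis, on the log2(RPKM + 0.5) scale) with its 95% interval (line), grouped by complex (colour). A filled point marks an adjusted p under 0.05, which Ndufs1 alone reached; the points run from -0.46 (Uqcrfs1) to 0.23 (Ndufs1).

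By complex the median change was 0.02 in complex I, 0.08 in complex II, 0.003 in complex III, -0.04 in complex IV and 0.01 in complex V. These medians are close to 0, and all but that of complex II changed sign under some setting. Leaving out 1 library took complex I from -0.02 to 0.04, complex II from 0.04 to 0.11 (0.106), complex III from -0.02 to 0.04, complex IV from -0.07 to -0.003 and complex V from -0.03 (-0.025) to 0.03. Without APPPS1;Apoe-/- replicates 2 and 5 complexes I to V had 0.003, 0.03, 0.001, -0.06 and -0.04, and complex IV was above 0 in female libraries (0.02). The mean level of each complex, averaged over its genes on the log2 scale, overlapped between the groups in all 5. Complex I ran from 7.04 to 7.19 in APPPS1 and from 6.95 to 7.34 in APPPS1;Apoe-/- libraries, and complex IV from 6.16 to 6.33 and from 6.00 to 6.45. Complex II ran from 7.29 to 7.48 and from 7.31 to 7.68. The spread was wider in the APPPS1;Apoe-/- group in all 5 complexes, for example an SD of 0.128 against 0.066 in complex I. APPPS1;Apoe-/- replicate 5 was the highest library in each complex and for 53 of the 84 genes, and replicate 6 the lowest in complexes I, III, IV and V and for 35 genes. Whether the depth and RPKM sum of replicate 5 given above take part in this was not tested.

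**Figure D2:**
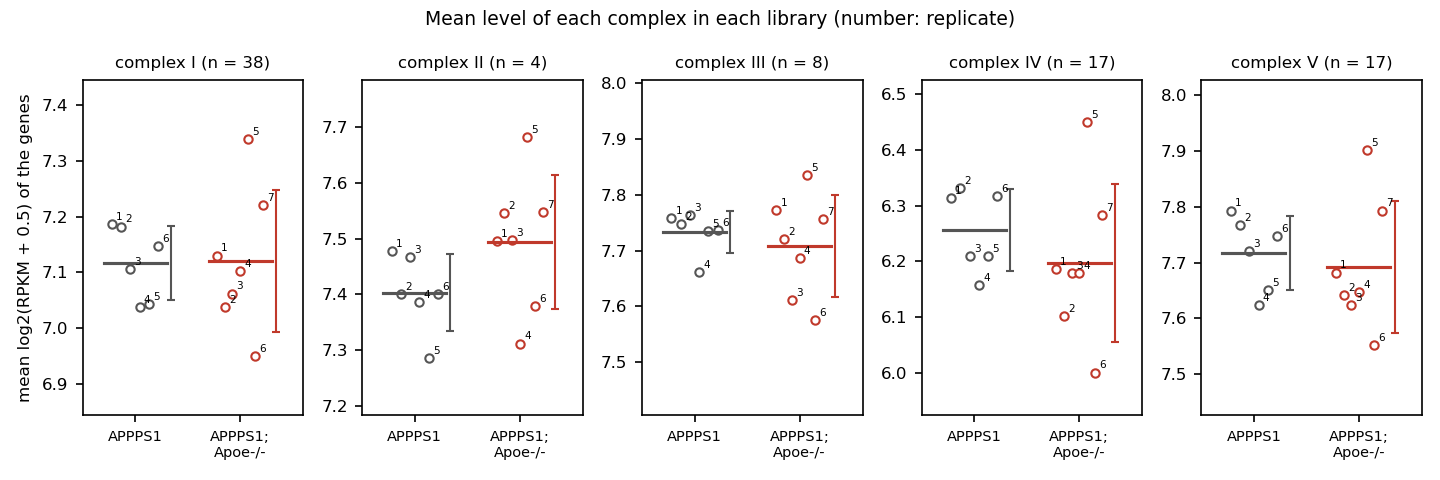
Mean log2(RPKM + 0.5) of the genes of each complex (y axis; each panel spans 0.6) in each library, with replicate numbers, the group mean (line) and SD (bar to the right). The groups overlap in every panel, and APPPS1;Apoe-/- replicate 5 is the highest point in each.

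Complex I has a core, conserved from bacteria, that holds the flavin and the iron-sulfur clusters, and many accessory subunits around it. The 7 nuclear core genes measured all had a change above 0 (median 0.14), and 5 were under an unadjusted p of 0.05, though only Ndufs1 was called. This grouping was chosen after the values were seen. Without APPPS1;Apoe-/- replicates 2 and 5 the median of the core was 0.09. The core mean ran from 6.84 to 7.03 in APPPS1 and from 6.96 to 7.31 in APPPS1;Apoe-/- libraries, so the groups overlapped.

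Ndufs1 (ENSMUSG00000025968.16) encodes the large iron-sulfur subunit of the core, and lies on the minus strand of chr1:63143596-63176833 in mm10. Its level was 54.4, 51.0, 56.8, 51.6, 45.5 and 51.4 RPKM in APPPS1 replicates 1 to 6. In APPPS1;Apoe-/- replicates 1 to 7 it was 63.7, 64.6, 63.6, 51.7, 65.3, 60.8 and 57.2 RPKM. All but replicate 4 of the APPPS1;Apoe-/- group lay above the highest APPPS1 library. The means were 51.8 ± 3.81 and 61.0 ± 4.95 RPKM (SD, n = 6 and 7), a ratio of 1.18. The log2 change was 0.23 (SE 0.063, 95% interval 0.10 to 0.37, limma adjusted p = 0.0313). The call held in 13 of 26 alternative fits, whose adjusted p ran from 0.00657 to 0.179. It was lost without APPPS1;Apoe-/- replicates 2 and 5 (log2 change 0.20 (0.195), adjusted p = 0.11), with log2 alignments in the model (0.28, adjusted p = 0.0933), in female libraries only (0.20, adjusted p = 0.179), and with no filter on low values (adjusted p = 0.0532). Leaving out any 1 of APPPS1 replicates 2, 4, 5 or 6 or APPPS1;Apoe-/- replicates 1, 2, 3 or 5 also ended the call, with adjusted p from 0.0543 to 0.0666; the change stayed at 0.20 (0.197) or more.

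The other core genes showed smaller differences, none of them called, and those named here follow. Ndufv1, which binds the flavin that accepts electrons from NADH, was at 139, 146 and 166 RPKM (lowest, median, highest) in APPPS1 and 152, 161.5 and 183 in APPPS1;Apoe-/- libraries (log2 change 0.15, adjusted p = 0.106). Ndufs7, which holds the last iron-sulfur cluster of the chain, had 0.14 (adjusted p = 0.159). Ndufv2, partner of Ndufv1, had 0.15 (0.188), Ndufs8 0.07 (0.075 before rounding, 0.485) and Ndufs3 0.06 (0.678), each with its adjusted p in brackets. For all of these the groups overlapped.

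The 31 accessory genes of complex I had a median change of -0.02, with 13 above 0 and 18 below. Those just short of the call were picked after their values were seen. Ndufab1, the mitochondrial acyl carrier protein, was at 78.5, 85.1 and 92.2 RPKM (lowest, median, highest) in APPPS1 and 58.0, 70.1 and 86.9 in APPPS1;Apoe-/- libraries. Replicate 5, at 86.9 RPKM, was the only APPPS1;Apoe-/- library above the APPPS1 minimum. The log2 change of Ndufab1 was -0.26 (SE 0.078, adjusted p = 0.0541), and without replicates 2 and 5 it was called lower (-0.31, adjusted p = 0.0261). Quantile normalization (adjusted p = 0.0118) and array weights (0.0241) also called it lower. It was not called with log2 alignments in the model (-0.36, adjusted p = 0.0691) or in female libraries (-0.21, 0.188). Ndufv3, a flavoprotein accessory subunit, had a change of -0.18 (adjusted p = 0.0597), and Ndufa9, near the junction of the arms, had 0.19 (0.0883). Ndufa4, now counted by many as a complex IV subunit, was the most abundant of the complex I names at a mean of 715 RPKM, with a change of 0.06 (0.055 before rounding, adjusted p = 0.635). Moving it and Ndufa4l2 to complex IV left the medians at 0.02 and -0.04.

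Complex II is succinate dehydrogenase, an enzyme of the tricarboxylic acid cycle as well as the chain. All 4 genes had a change above 0, none called. Sdha, the flavoprotein, was at 199.6, 217 and 238 RPKM (lowest, median, highest) in APPPS1 and 208, 249 and 263 in APPPS1;Apoe-/- libraries. All but replicate 4 of the latter were above every APPPS1 library. The change was 0.18 (SE 0.059, adjusted p = 0.0721). Sdhc and Sdhd, the membrane anchors, had 0.10 and 0.06 (adjusted p = 0.306 and 0.63), and Sdhb, the iron-sulfur subunit, had 0.03 (0.852). Leaving out APPPS1;Apoe-/- replicate 4 made Sdha pass (log2 change 0.22, adjusted p = 0.01), as did leaving out APPPS1 replicate 3 (0.0496). Without both APPPS1;Apoe-/- replicates 2 and 5 its adjusted p was 0.184 (log2 change 0.16), with log2 alignments in the model 0.156 and in female libraries 0.318.

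Complex III contains core proteins, the Rieske iron-sulfur protein and small subunits. None of its 8 genes was called, and 4 had a change above 0 and 4 below. Uqcrc1, a core protein, was at 190.1, 236.5 and 249 RPKM (lowest, median, highest) in APPPS1 and 214, 261 and 305 in APPPS1;Apoe-/- libraries (log2 change 0.22, SE 0.088, adjusted p = 0.137). Without APPPS1;Apoe-/- replicates 2 and 5 its change was 0.14 (0.135, adjusted p = 0.385). Uqcrc2, the other core protein, had 0.10 (adjusted p = 0.336). Uqcrfs1, the Rieske protein, was lower in mean but variable: 28.3, 41.3 and 51.2 RPKM in APPPS1 and 18.7, 30.4 and 42.0 in APPPS1;Apoe-/- libraries. Its log2 change, the most negative of the 84, was -0.46 (SE 0.19, 95% interval -0.87 to -0.06, adjusted p = 0.14). Among the small subunits Uqcr11 was at 468 to 530 and 377 to 512 RPKM (-0.18, adjusted p = 0.112), and Uqcrb had 0.18 (0.144). Uqcr10, the most abundant of the complex at 499.7 RPKM, had -0.03 (0.847). Groups overlapped for every gene of the complex.

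**Figure D3:**
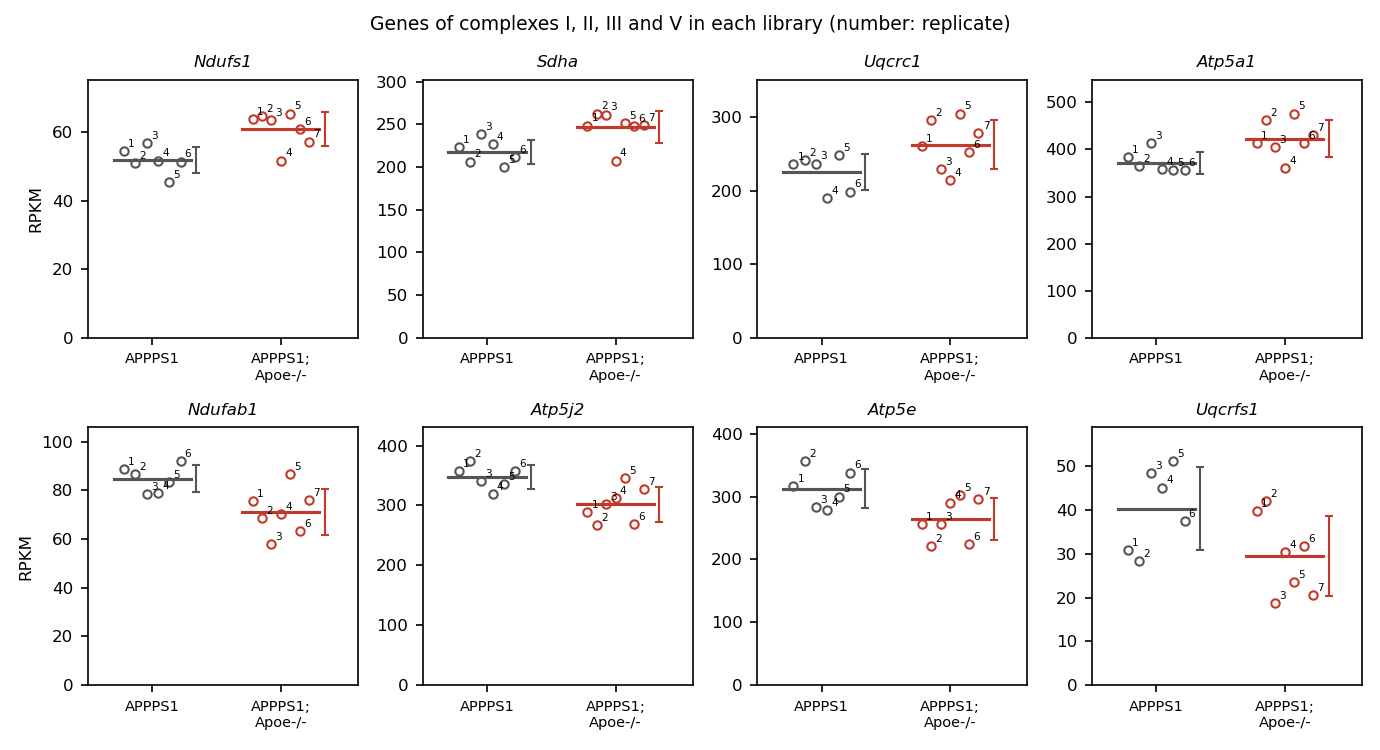
RPKM (y axis, from 0) of 8 genes of complexes I, II, III and V in each library, with replicate numbers, the group mean (line) and SD (bar to the right); Ndufab1 was picked after its values were seen. Ndufs1, Sdha, Uqcrc1 and Atp5a1 have higher means in APPPS1;Apoe-/- mice and the other 4 lower ones, with overlapping groups in every panel.

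In complex IV, cytochrome c oxidase, 8 genes had a change above 0 and 9 below, and 0 were called. The lowest unadjusted p was that of Cox8a, the ubiquitous form of a small subunit, at 487, 545 and 579 RPKM (lowest, median, highest) in APPPS1 and 428, 455 and 540 in APPPS1;Apoe-/- libraries (log2 change -0.18, SE 0.065, adjusted p = 0.105). The most abundant respiratory chain gene was Cox4i1, the general form of subunit 4, with 1117 ± 45.1 and 1141 ± 82.0 RPKM (SD, n = 6 and 7; change 0.03, adjusted p = 0.79). Cox5a and Cox5b, which line the matrix side, had -0.15 and -0.04 (adjusted p = 0.234 and 0.777). Cox7a2l, which takes part in joining complexes III and IV, had 0.07 (0.065, adjusted p = 0.404).

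Several subunits have a second gene used mainly in other tissues, such as heart, skeletal muscle, lung or testis, and in cortex these stayed far below their ubiquitous partner. The share of Cox4i2 in Cox4i1 plus Cox4i2 had a median of 0.336% in APPPS1 and 0.346% in APPPS1;Apoe-/- libraries. The share of Cox6a2 in its pair was 1.52% and 1.69%, that of Cox6b2 0.466% and 0.424%, and that of Cox7a1 2.06% and 1.65%. Ndufa4l2, a form induced by low oxygen, made up 0.491% and 0.447% of its pair. Cox8b, near the minimum, was at a mean of 0.816 ± 0.169 and 0.658 ± 0.646 RPKM, and the spread of the second group came largely from replicate 5 at 2.01 RPKM. Cox7b2, at a mean of 0.583 RPKM over all libraries, was the weakest gene counted. Its value just above the minimum, with Cox8b next at 0.731 RPKM and Cox8c below it, marks the edge of the selection.

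**Figure D4:**
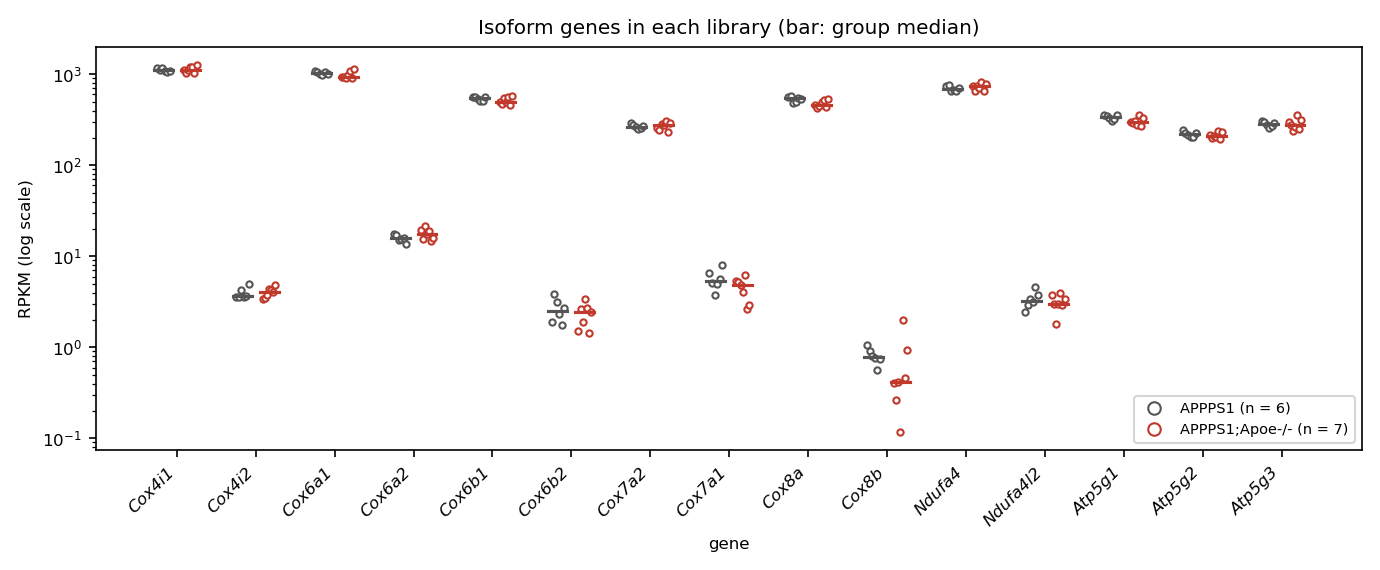
RPKM (y axis, log scale) of isoform genes in each library (circles) with group medians (bars), grey for APPPS1 and red for APPPS1;Apoe-/-. The second Cox and Ndufa4 genes lie far below their partners, and the 3 Atp5g genes lie close together.

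Complex V had 10 changes above 0 and 7 below, and 0 calls. In the catalytic F1 part Atp5a1, the alpha subunit, was at 356, 361 and 414 RPKM (lowest, median, highest) in APPPS1 and 360.1, 413 and 476 in APPPS1;Apoe-/- libraries (log2 change 0.18, SE 0.063, adjusted p = 0.0875), and without replicates 2 and 5 the change was 0.12 (adjusted p = 0.247). Atp5b, the catalytic beta subunit, had 0.01 (0.939), while Atp5e, the epsilon subunit, was at 279, 308 and 357 RPKM and 221, 257 and 302 RPKM (-0.25, SE 0.084, adjusted p = 0.0814). The F1 subunits thus had values of either sign, none of them called. Atp5j2, a small subunit of the membrane part, was at 318, 349 and 374.5 RPKM and 267, 302 and 346 RPKM. Its log2 change was -0.20 (-0.205 before rounding, SE 0.064, adjusted p = 0.0597), and without APPPS1;Apoe-/- replicate 5 it was called lower (adjusted p = 0.0255). Atp5j2 was also called lower with quantile normalization (adjusted p = 0.00671) and array weights (0.0198). It was not called without both replicates 2 and 5 (adjusted p = 0.0524), with log2 alignments (0.194) or in female libraries (0.271). The 3 genes for the same c subunit of the rotating ring divided their summed RPKM as follows: Atp5g1 40.1% and 37.6% (medians of APPPS1 and APPPS1;Apoe-/-), Atp5g2 26.1% and 26.7%, and Atp5g3 33.7% and 35.9%. Their log2 changes were -0.15, -0.05 and 0.002 (adjusted p = 0.164, 0.622 and 0.993). Atp5h, a stalk subunit and the most abundant of the complex, was at 477 RPKM with a change of 0.03 (0.789).

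The changes ran with the length of the coding sequence, a comparison chosen after the changes were seen. Spearman's rho between coding length (principal transcript of GENCODE mouse release 21) and log2 change was 0.53 over the 84 genes, and 0.45 to 0.58 over all settings. These points come from the same 13 libraries and share their depth, so they are not independent. Base composition was not examined. Among the 24 genes of up to 300 coding bases the median change was -0.11, with 17 below 0. Among the 11 over 1000 bases it was 0.15, with 10 above 0; the exception was Ndufv3. The pattern was not particular to the respiratory chain. Over 1096 other genes of at least 50 RPKM rho was 0.28, and the medians ran from -0.05 (up to 300 bases) to 0.09 (over 1000). Over all 12573 other tested genes with a length rho was -0.03. The core subunits of complex I, Sdha, Uqcrc1 and Atp5a1 are among the longer genes, and Uqcr11, Cox8a, Atp5e and Atp5j2 are among the shorter ones, so the roles and the lengths cannot be told apart here. The mean of the 11 long genes minus that of the 24 short ones was 0.31 to 0.60 on the log2 scale in APPPS1 libraries and 0.49 to 0.81 in APPPS1;Apoe-/- libraries.

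**Figure D5:**
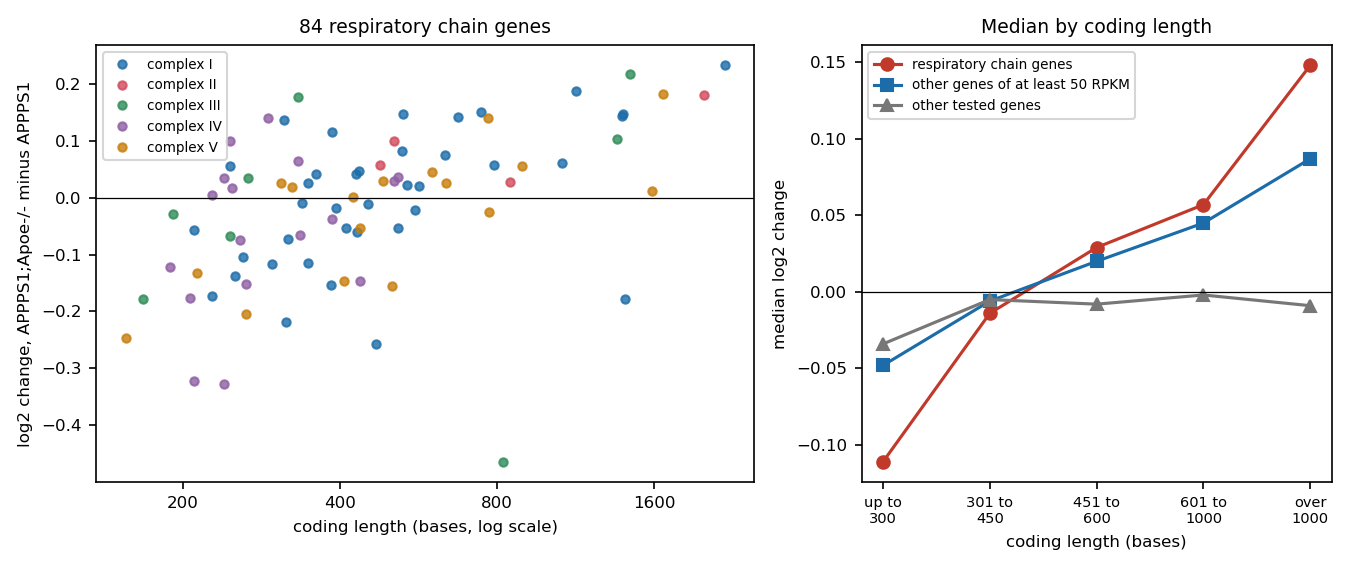
Left, log2 change of each respiratory chain gene (y axis) against its coding length (x axis, log scale), coloured by complex. Right, the median log2 change by class of coding length, for these genes, for other genes of at least 50 RPKM and for all other tested genes. The medians of the first rise from -0.11 to 0.15 and those of other abundant genes from -0.05 to 0.09.

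Other genes of the pathway, from lists drawn up for comparison, were tested in the same fit. Of 24 genes for further subunits and carriers 0 were called, with a median change of 0.04. Slc25a4, the adenine nucleotide carrier of the inner membrane, had the smallest p (0.18, adjusted p = 0.0586), and Cycs, cytochrome c, had 0.14 (0.176). Among all genes tested 3.48% were called higher and 4.74% lower. Of 50 assembly factors 4 were called higher and 0 lower. These were Cox10 (log2 change 0.24 (0.235), adjusted p = 0.0188) and Cox15 (0.27, 0.034), which make the heme of complex IV, Uqcc1 (0.17, 0.0377), needed for complex III, and Tmem126b (0.23, 0.0468), needed for complex I. Without APPPS1;Apoe-/- replicates 2 and 5 0 of the 50 were called, and the shares of all genes also fell, to 1.78% higher and 3.30% lower. Of 18 transcriptional regulators 0 were called. Nrf1 itself was at 3.27 and 3.65 RPKM (0.14, adjusted p = 0.13), and Ppargc1a, a coactivator of mitochondrial genes, at 5.96 and 5.87 RPKM (-0.02, 0.838).

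Of 18 genes of the tricarboxylic acid cycle 1 was called higher, Dlst, the succinyltransferase of the 2-oxoglutarate dehydrogenase complex (0.16, adjusted p = 0.0319). The median change was 0.11, with 17 above 0; without APPPS1;Apoe-/- replicates 2 and 5 it was 0.05 (0.054), with 17 above 0 and 0 called. Of 16 glycolytic genes 1 was called higher, Ldhb (844 ± 77.5 and 1051 ± 90.1 RPKM; 0.32, adjusted p = 0.0107). Mitochondrial ribosome genes were called higher in 6 of 78 cases, led by Mrpl50 (0.32, adjusted p = 0.00193), and lower in 2, Mrps12 and Mrpl54. Without the same libraries 3 were called higher and 3 lower. The shares of all genes were 3.48% higher and 4.74% lower, and 1.78% and 3.30% without these libraries. Mrps12 (-0.94, adjusted p = 0.000149) lies within 30 Mb of Apoe on chromosome 7. Of 77 cytosolic ribosome genes 0 were called, and the median was -0.07, with 58 below 0.

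Within 30 Mb of Apoe on chromosome 7 lie 5 of the 84 genes, Atp5sl, Cox7a1, Cox6b1, Cox6b2 and Ndufa3. All 5 changes were below 0 (median -0.14), and 0 were called. Cox7a1, Ndufa3, Cox6b1 and Cox6b2 have 240, 252, 258 and 264 coding bases. They belong to the class of up to 300, of whose 24 genes 17 were below 0 (median -0.11). Atp5sl, with 771, had -0.025. Position and coding length cannot be told apart here, and flanking DNA that came with the Apoe deletion was not tested.

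Cell type markers moved with genotype beside these small changes. Among all genes tested 3.48% were called higher and 4.74% lower, and 1.78% and 3.30% without APPPS1;Apoe-/- replicates 2 and 5. Microglial markers were called lower in 10 of 14 cases (median -0.61), and their summed level was 808 to 984 RPKM in APPPS1 and 291 to 623 in APPPS1;Apoe-/- libraries. APPPS1;Apoe-/- replicates 2 and 5 stood apart here too, with a mean log2 level of 3.38 and 3.56 against 4.47 to 4.65 in the other libraries of the group and 5.02 to 5.35 in APPPS1. Without them 9 of 14 were called lower, and the median was -0.36. Neuron markers were called lower in 2 of 17 (Nefh and Slc17a7), and in 1 (Nefh) without replicates 2 and 5. Their summed level was 4474 to 5005 and 4458 to 5239 RPKM. Their mean log2 level was 6.77 to 6.84 in APPPS1 and 6.65 to 6.77 in APPPS1;Apoe-/- libraries, of which only replicate 7 lay above the lowest APPPS1 library. The list holds Thy1, which had its most negative change (-0.66, and -0.13 without replicates 2 and 5). Thy1 was at 52.2 and 56.9 RPKM in replicates 2 and 5, which lowers their mean. The mean without Thy1 was not computed. Oligodendrocyte markers were called higher in 4 of 10, at 878 to 1230 and 990 to 1566 RPKM, and astrocyte markers in 2 of 12 higher and 2 lower, at 1573 to 1754 and 1538 to 1768 RPKM. Endothelial markers were called higher in 2 of 9 (76.8 to 108 and 103.5 to 133 RPKM). Markers of the striatum, which lies under the cortex, were called higher in 1 of 10, with all 10 changes above 0 and sums of 342 to 833 and 447 to 937 RPKM. Without replicates 2 and 5 oligodendrocyte markers were called higher in 1 of 10 and striatal markers in 0. Astrocyte markers were then called in 1 higher and 1 lower, and endothelial markers in 2 higher and 1 lower. Erythroid markers had 0 calls of 5, a median of -1.45 (-1.445) and sums of 3.70 to 298 RPKM in APPPS1 against 8.51 to 19.4; APPPS1 replicates 1, 2 and 4 stood apart at 110.5, 298 and 161 RPKM. Of 8 choroid plexus markers listed only 2 reached the minimum, Enpp2 and Ttr, at means of 74.5 and 15.8 RPKM. They had 0 calls and a median of 0.66, with the highest sum, 157 RPKM, in APPPS1;Apoe-/- replicate 5. With so few markers left, this does not show choroid plexus tissue. Pericyte markers had 0 calls of 7 tested (10 listed). Of 3 skeletal muscle markers tested (10 listed) Tnni2 was called lower (0 of 3 without replicates 2 and 5). The part of these cells in the respiratory chain changes was not tested.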

How the data were processed

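The authors deposited RPKM per gene in 1 table for 13 libraries, with a count of alignments per library (18455493 to 77005806, deposited by the authors). Per the labels' protocols, frozen cortex went through Trizol extraction and Clontech SMARTer library synthesis; per the submitters' processing notes, Partek and mm10 were used. No source used here names the aligner, counting rule, strand use or annotation, so overlapping or near-identical genes may share reads. Values became log2(RPKM + 0.5). Genes averaging 0.5 RPKM or more (13343) entered limma 3.58.1 under R 4.3.3 (lmFit, eBayes with trend), with genotype as the only term, two-sided, Benjamini-Hochberg adjusted, called under 0.05. A fold on this scale understates the change of weak genes.

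The genes and lists were chosen with earlier results of these data known. The cytosolic ribosome list was redefined after a first version had been counted, to drop kinases and -like genes. Core, isoform and length groupings, the 50 RPKM minimum and the motifs were also chosen after values were seen. The text names called genes (up to 4 per complex and direction, otherwise the 2 with the smallest p), a set of core, isoform and catalytic subunits, the most and least abundant per complex, and up to 4 called genes per list. Others named, such as Ndufab1, Ndufv3, Ndufa9 and Uqcrb, were picked after their values were seen. A gene that the rule names is not reported here and is left out of the plot of changes by gene; it stays in the counts and medians.

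Positions come from GENCODE mouse release 21 (mm10); 83 symbols matched by name and 1 by a synonym. Alternatives were other pseudocounts (0.1 and 1), filters, scalings, variance models, array weights, a sex score and leaving out each library. Fits without 2 libraries with low App, with log2 alignments, both together and with female libraries only were added after seeing the data. Sex was read from Xist and Y-linked genes: 5 female libraries in each group. No pair of libraries was identical. The code was tested on simulated data. Python 3.11.15, pandas 2.3.3 and matplotlib 3.10.9 did the rest.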

Additional observations from a re-analysis of the deposited data

Results flagged for a closer look

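In each group the highest or lowest library was compared with the others for the 5 complex means and the named genes, 90 groups of values in all. Chance sets apart about 1 value in 20 groups, and 6 values were set apart by a wide gap to the nearest library. The 90 groups share the same 13 libraries and are not independent, so 6 is not read as more than chance gives. Among APPPS1;Apoe-/- libraries replicate 5 was high for Ndufs8 (225.3 RPKM, others 169.8 to 191.5), Ndufv2 (165.7 RPKM, others 120.3 to 137.1) and Cox8b (2.009 RPKM, others 0.118 to 0.926), and replicate 4 was low for Sdha (207.6 RPKM, others 247.7 to 262.7). Among APPPS1 libraries replicate 5 was low for Ndufs8 (159.0 RPKM, others 176.5 to 183.0), and replicate 4 was low for the complex III mean (7.661 on the log2 scale, others 7.735 to 7.764).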

How the results depend on the processing

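The median changes of the 84 genes and of each complex moved by less than the mean of both groups' SD under the 26 alternatives, but signs changed. The median of the 84 genes (0.018) ran from -0.023 to 0.039, that of complex I from -0.016 to 0.045, complex II 0.027 to 0.106, complex III -0.026 to 0.042, complex IV -0.07 to 0.024 and complex V -0.038 to 0.04. Counts of calls, 1 higher and 0 lower as reported, moved more. They were 0 higher without a filter on low values, 1 lower with median-of-ratios scaling, 8 higher and 6 lower with quantile normalization, and 3 and 5 with array weights. Without both low-App libraries they were 0 and 1. With log2 alignments, with both of these together and in female libraries only 0 were called higher. Leaving out 1 library gave 0 to 4 higher and 0 to 2 lower: 3 higher without APPPS1 replicate 3, 4 higher without APPPS1;Apoe-/- replicate 4, 2 lower without replicate 5 and 1 lower without replicate 7. For these fits, the filter, median-of-ratios scaling, both changes together and female libraries, the share of all genes called was not counted. Such counts therefore cannot be read as moves of the 84 genes alone. The cause was not tested. No paired analysis was possible because the labels give no replicate numbers that pair the groups.

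A named gene changed sign 37 times over all alternatives, and in none of these was it called. With quantile normalization Atp5b was -0.007, Cox4i1 -0.034 and Uqcr10 0.015. With array weights Atp5g3 was -0.011, Cox4i2 -0.00032, Cox7a2 -0.02 and Sdhb -0.005. Without both low-App libraries Atp5b was -0.04, Atp5g3 -0.057, Atp5s -0.009 and Sdhb -0.037. With log2 alignments Atp5b was -0.029, Atp5g3 -0.069 and Cox7b2 -0.04, and with both together -0.038, -0.064 and -0.049. In female libraries Cox5b was 0.011 and Cox6b2 0.076. Leaving out 1 library gave Atp5b -0.024 to 0.054, Atp5g3 -0.053 to 0.041, Cox7a2 -0.012 to 0.052, Sdhb -0.017 to 0.058, Atp5s -0.00093 to 0.084, Cox4i2 -0.004 to 0.097 and Uqcr10 -0.059 to 0.021. The RPKM table holds no reads per gene, and counting error was not separated from the spread between mice.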
